A study of Mus musculus with 6 samples.

Results

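The genes described here are 10 genes that mark neutrophils at successive stages of maturation, among the 23951 gene symbols measured in whole mouse skin. They were chosen by name, with earlier results of these libraries known. The list was selected on the levels it showed in these same JunBΔep and control libraries, so the comparison of genotypes is given for these genes as a description, without a test. They comprise 4 genes of the primary granules (Mpo, Elane, Prtn3 and Ctsg), 4 of the secondary granules (Ngp, Camp, Ltf and Cd177) and 2 of mature neutrophils (Retnlg and Csf3r). All 10 symbols were found in the table. Skin of 3 mice labelled JunB dep, called JunBΔep here, was compared with skin of 3 littermates labelled JunB +/+, called controls here. All were C57Bl/6 mice aged 6 to 7 months. In JunBΔep mice the gene is deleted in cells that express keratin 5, the basal keratinocytes, so neutrophils and most other cells of the skin keep it. The study took lesional skin from JunBΔep mice and included both sexes. Values are FPKM (fragments per kilobase of transcript, scaled to the mapped fragments of the library), 1 library per mouse, and libraries are named by the replicate number in their labels (0, 1 or 2). The labels give no site on the body for the skin.

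Neutrophils form in the bone marrow, and in the liver of the fetus, and they fill their granules in sequence. Promyelocytes make the primary (azurophil) granule proteins, myelocytes and metamyelocytes make the secondary (specific) granule proteins, and the transcripts of both are largely switched off before the cell enters the blood. Transcripts such as Retnlg and Csf3r are abundant in the mature cells that leave the marrow and enter inflamed skin. In whole tissue, more cells of a type and more RNA per cell cannot be told apart.

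The sequence upstream of each gene was searched for letters that factors of the granulocyte lineage are known to bind, to show what members of a stage share there. The window is the 250 bases before the RefSeq gene start on GRCm38.p6, and all 10 genes matched an entry. GAGGAA, on either strand, is a core of PU.1 sites, and it lay in 7 of the 10 windows, among them those of all 4 primary granule genes, against 23.3% of 32851 mouse promoter windows. TTNNGNAA, on either strand, is a loose form of the C/EBP site, and it lay in 4 of the 10 windows, those of Ngp, Ltf, Cd177 and Retnlg, against 36.8% of all windows. TATAAA, on either strand, lay in 2 of the 10, Ctsg and Cd177, against 12.4% of all windows. These matches describe letters and not bound sites. A pair of genes per stage is shown, with matches to any of the 3 motifs in capitals, 5′ to 3′ on the strand of the gene.
Mpo, chr11:87793534-87793783, plus strand: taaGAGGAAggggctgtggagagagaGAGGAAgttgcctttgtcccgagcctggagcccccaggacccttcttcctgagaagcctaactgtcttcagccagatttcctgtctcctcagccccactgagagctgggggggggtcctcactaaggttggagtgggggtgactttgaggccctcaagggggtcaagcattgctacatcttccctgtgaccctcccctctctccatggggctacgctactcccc
Elane, chr10:79886062-79886311, plus strand: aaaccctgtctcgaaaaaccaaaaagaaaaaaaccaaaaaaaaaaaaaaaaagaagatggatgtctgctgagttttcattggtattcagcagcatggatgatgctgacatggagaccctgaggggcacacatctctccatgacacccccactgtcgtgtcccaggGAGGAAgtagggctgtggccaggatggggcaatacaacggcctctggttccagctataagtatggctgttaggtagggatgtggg
Ngp, chr9:110419558-110419807, plus strand: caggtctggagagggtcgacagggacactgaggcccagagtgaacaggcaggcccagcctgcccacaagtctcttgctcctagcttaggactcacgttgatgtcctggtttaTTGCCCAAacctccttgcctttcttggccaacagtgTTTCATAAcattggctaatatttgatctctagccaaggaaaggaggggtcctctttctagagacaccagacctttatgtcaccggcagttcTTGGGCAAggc
Ltf, chr9:111019042-111019291, plus strand: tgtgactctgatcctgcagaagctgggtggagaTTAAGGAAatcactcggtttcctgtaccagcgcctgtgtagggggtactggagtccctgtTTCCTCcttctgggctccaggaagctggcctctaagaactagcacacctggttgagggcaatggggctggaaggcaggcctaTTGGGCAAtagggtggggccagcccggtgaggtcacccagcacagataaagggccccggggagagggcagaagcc
Retnlg, chr16:48872358-48872607, plus strand: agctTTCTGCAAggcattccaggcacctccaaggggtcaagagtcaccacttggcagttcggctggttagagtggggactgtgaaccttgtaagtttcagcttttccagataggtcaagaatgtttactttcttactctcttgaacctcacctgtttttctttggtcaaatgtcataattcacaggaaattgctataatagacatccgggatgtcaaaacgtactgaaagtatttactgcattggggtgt
Csf3r, chr4:126024409-126024658, plus strand: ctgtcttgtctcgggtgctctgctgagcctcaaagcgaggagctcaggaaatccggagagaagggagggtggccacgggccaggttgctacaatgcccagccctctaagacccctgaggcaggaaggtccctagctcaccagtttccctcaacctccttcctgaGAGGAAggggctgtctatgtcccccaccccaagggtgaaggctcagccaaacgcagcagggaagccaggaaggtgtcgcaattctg
The Mpo window holds GAGGAA at 247 and 224 bases before the start, and the Elane window holds it at 85 bases. The Ngp window holds TTNNGNAA at 138, 102 and 11 bases before the start, and no GAGGAA.

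As facts of the whole table, the FPKM values summed to 481078 to 630363 per library, and since read depth is unknown, values carry no counting error. Junb itself was at 129.6 FPKM for the library labelled JunBΔep replicate 0 and at 28.0 to 72.4 FPKM in the other 5. That library is named by its label throughout, and every direction that rests on it carries this reservation. It and control replicate 0 stood apart from the other 4 libraries in the genes described here. Krt5, of basal keratinocytes, was at 1588 to 3725 FPKM in the 6 libraries, while its partner Krt14 was listed at 0 in the library labelled JunBΔep replicate 0, so values listed at 0 may be estimates that failed. The neutrophil surface marker Ly6g was not analysed here.

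**Figure D1:**
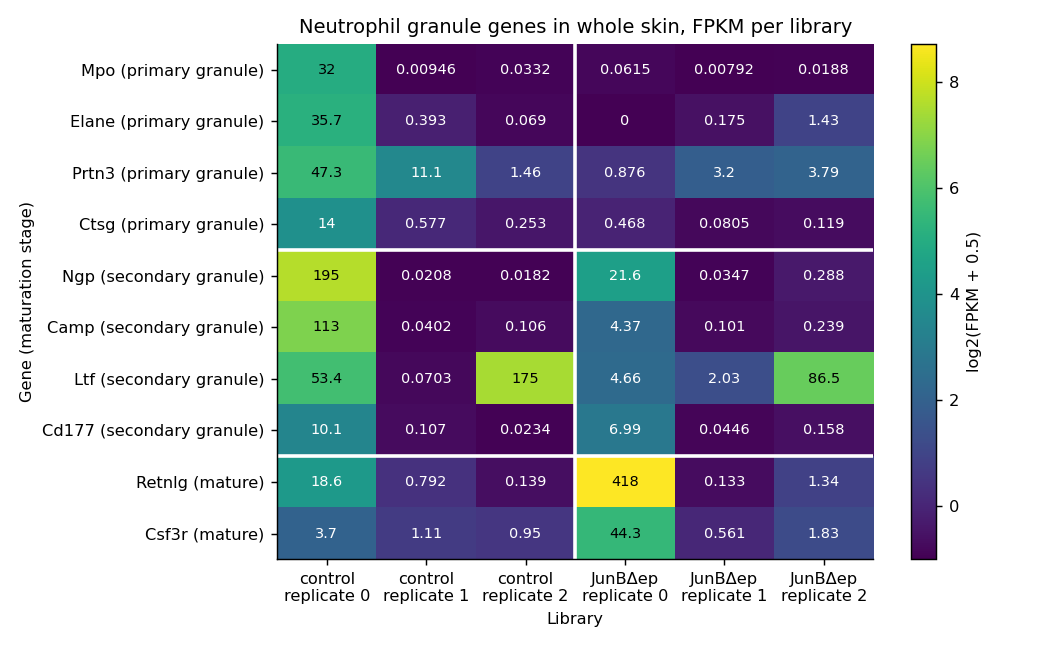
Level of the 10 genes (rows, grouped by maturation stage) in each of the 6 libraries (columns, 1 mouse each). Numbers are FPKM and colour is log2(FPKM + 0.5). Control replicate 0 is high for the primary and secondary granule genes, up to 195 FPKM for Ngp, and the library labelled JunBΔep replicate 0 is high for Retnlg, at 418 FPKM, and Csf3r. Ltf is also high in control replicate 2 and JunBΔep replicate 2.

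All 4 primary granule transcripts were highest in control replicate 0, and all but Prtn3 were low in the other 5 libraries. Mpo, the myeloperoxidase that makes hypochlorous acid from hydrogen peroxide, lies on mm9 chromosome 11 from 87607083 to 87617915, with up to 14 exons in a transcript. Control replicates 0, 1 and 2 gave 32.0, 0.00946 and 0.0332 FPKM, and JunBΔep replicates 0, 1 and 2 gave 0.0615, 0.00792 and 0.0188 FPKM. Control replicate 0 thus exceeded the next library 521-fold, and no other library reached 0.1 FPKM. Elane, neutrophil elastase, lies on chromosome 10 from 79349057 to 79350961. Controls gave 35.7, 0.393 and 0.0690 FPKM. The library labelled JunBΔep replicate 0 listed it at 0, and JunBΔep replicates 1 and 2 gave 0.175 and 1.43 FPKM. In the 4 libraries that did not stand apart, its values followed the order of Cfd, the adipocyte gene for adipsin, which starts 2636 bp downstream on the same strand. Cfd, singled out after its values were seen, was at 919, 1829 and 614 FPKM in controls and at 8.51, 688 and 5034 FPKM in JunBΔep mice. A part of Cfd reads in the low Elane values was not tested.

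Prtn3, proteinase 3, is a further serine protease of the primary granules and lies next to Elane, on chromosome 10 from 79337221 to 79345919. It was at 47.3, 11.1 and 1.46 FPKM in controls and at 0.876, 3.20 and 3.79 FPKM in JunBΔep mice. It was the least selective of the 4, with control replicate 0 only 4.26-fold above control replicate 1. Ctsg, cathepsin G, lies on chromosome 14 from 56718718 to 56721411. It was at 14.0, 0.577 and 0.253 FPKM in controls and at 0.468, 0.0805 and 0.119 FPKM in JunBΔep mice. Again control replicate 0 was highest, 24.2-fold above control replicate 1, and the other 5 libraries overlapped between genotypes. Prtn3 was lowest of the 6 libraries in the library labelled JunBΔep replicate 0.

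Secondary granule transcripts were high in control replicate 0 and, at lower levels, in the library labelled JunBΔep replicate 0. Ngp, a granule protein related to the cathelicidins, lies on chromosome 9 from 110322254 to 110325514. It was at 195, 0.0208 and 0.0182 FPKM in controls and at 21.6, 0.0347 and 0.288 FPKM in JunBΔep mice. Camp, the cathelicidin whose cleaved peptide kills bacteria, lies on the same chromosome from 109749889 to 109751970. It was at 113, 0.0402 and 0.106 FPKM in controls and at 4.37, 0.101 and 0.239 FPKM in JunBΔep mice. Both genes therefore had the same 2 highest libraries, with control replicate 0 above the library labelled JunBΔep replicate 0 by 9.04-fold for Ngp and 25.8-fold for Camp. Cd177, a surface glycoprotein also stored in secondary granules, lies on chromosome 7 from 25529004 to 25545330. It was at 10.1, 0.107 and 0.0234 FPKM in controls and at 6.99, 0.0446 and 0.158 FPKM in JunBΔep mice. Those top 2 libraries were closest for Cd177, which differed by 1.44-fold between them, and the other 4 stayed at or below 0.158 FPKM.

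Ltf departed from the other secondary granule genes. It encodes the iron-binding protein lactoferrin, which exocrine gland epithelium secretes as well, and it lies on chromosome 9 from 110921796 to 110945270, near Ngp. It was at 53.4, 0.0703 and 175 FPKM in controls and at 4.66, 2.03 and 86.5 FPKM in JunBΔep mice. Its 2 highest libraries were control replicate 2 and JunBΔep replicate 2, in which Ngp, Camp and Cd177 did not exceed 0.288 FPKM. Over the 6 libraries its Pearson correlation with Ngp on the log2(FPKM + 0.5) scale was 0.18, against 0.98 between Ngp and Camp and 0.98 between Ngp and Cd177. Between stages, Camp had a coefficient of 0.93 with Mpo, Ngp one of 0.83 and Cd177 one of 0.70. With Prtn3 they were lower, at 0.61, 0.47 and 0.33 in the same order. With Retnlg, of the mature genes, they were 0.63, 0.78 and 0.89. Camp thus ran closer to Mpo than to Retnlg, and Cd177 closer to Retnlg than to Mpo. These coefficients are descriptions over 6 libraries that share a table and rest largely on 1 or 2 of them. In these skins the level of Ltf did not track that of the other secondary granule genes.

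The library labelled JunBΔep replicate 0 held the highest level of both genes of mature neutrophils. Retnlg, a resistin-like protein secreted by neutrophils, lies on chromosome 16 from 48872721 to 48874611. It was at 18.6, 0.792 and 0.139 FPKM in controls and at 418, 0.133 and 1.34 FPKM in JunBΔep mice. Csf3r, the receptor for granulocyte colony-stimulating factor, lies on chromosome 4 from 125701794 to 125722219. It was at 3.70, 1.11 and 0.950 FPKM in controls and at 44.3, 0.561 and 1.83 FPKM in JunBΔep mice. For both, control replicate 0 came second, 22.4-fold lower for Retnlg and 12.0-fold lower for Csf3r. JunBΔep replicate 1 had the lowest value of the 6 for each gene, so the genotypes overlapped.

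The stages were thus ordered differently in the 2 libraries that stood apart. In control replicate 0 the mean log2(FPKM + 0.5) level was 5.90 for the secondary granule genes, 4.91 for the primary granule genes and 3.16 for the mature genes. In the library labelled JunBΔep replicate 0 it was 7.10 for the mature genes, 3.01 for the secondary granule genes and -0.35 for the primary granule genes. The last value counts Elane as 0, which may be a failed estimate, so it is not ranked against the -0.29 to 0.63 of the other 4 libraries. On this scale, control replicate 0 minus the library labelled JunBΔep replicate 0 was 5.86 for Mpo, 5.12 for Prtn3 and 3.90 for Ctsg, 0.50 to 4.54 for the secondary granule genes, and -4.45 and -3.42 for Retnlg and Csf3r. No difference is given for Elane, listed at 0 in the second. This sets 1 mouse beside another and has no replicate check.

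In summed FPKM, the 4 primary granule genes reached 129 in control replicate 0 and 1.41 in the library labelled JunBΔep replicate 0. The 2 mature genes reached 22.3 and 462 in the same libraries. As a share of the summed FPKM of all 10 genes, the mature genes made up 4.27% in control replicate 0 and 92.2% in the library labelled JunBΔep replicate 0. The primary granule genes made up 24.7% and 0.280% in the same order, the latter with Elane listed at 0. In the other 4 libraries the sum without Ltf was small for the secondary granule genes, 0.147 to 0.686 FPKM, and 0.693 to 3.16 FPKM for the mature genes. Prtn3 made up most of the primary granule sum in each of those 4 libraries.

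**Figure D2:**
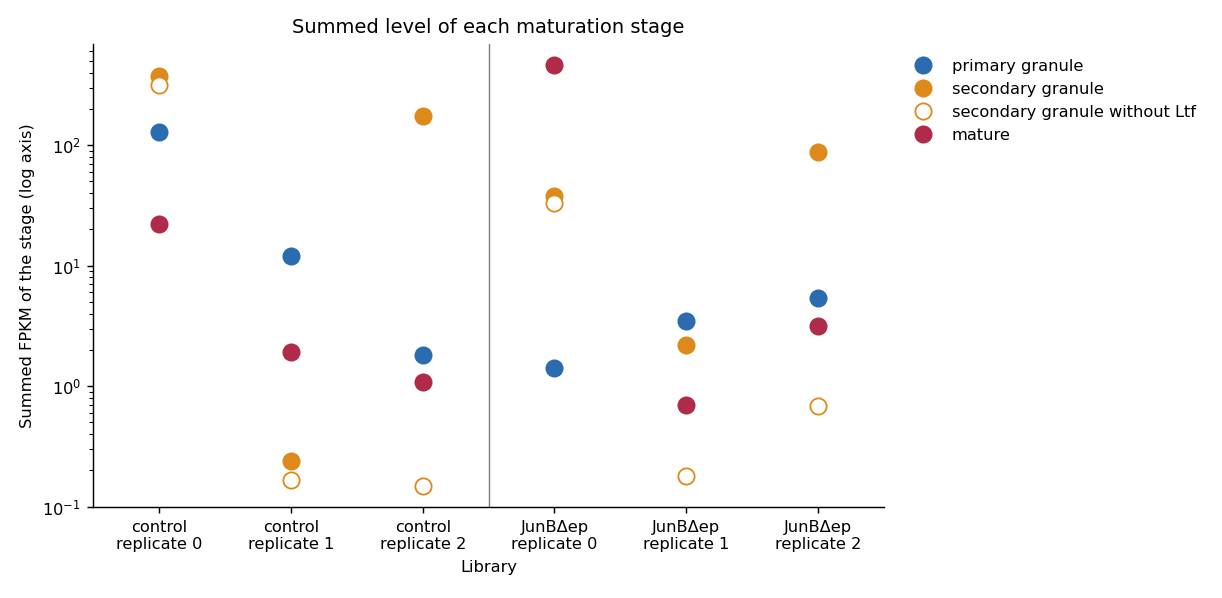
Summed FPKM of the genes of each maturation stage (log vertical axis) in each of the 6 libraries (horizontal axis, 1 mouse each). Open circles leave Ltf out of the secondary granule sum. The mature sum is highest in the library labelled JunBΔep replicate 0, at 462 FPKM, and the primary granule sum in control replicate 0, at 129 FPKM. The open circles show that Ltf alone lifts control replicate 2 and JunBΔep replicate 2.

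Between the genotypes, the values of JunBΔep and control mice overlapped in all 10 genes. The log2 fold change of JunBΔep over control in log2(FPKM + 0.5), where changes of low genes come out too small, had a median of -1.79 for the primary granule genes, -0.79 for the secondary granule genes and 1.41 for the mature genes. Over all 17021 genes tested the median was 0.03. The fold change with its standard error was -1.97 ± 1.62 for Mpo, -1.37 ± 2.21 for Camp and 1.65 ± 2.65 for Retnlg (n = 3 mice per genotype). These errors are as large as the differences or nearly so. In FPKM, Retnlg was at 6.52 ± 10.5 (SD, n = 3) in controls and 140 ± 241 (SD, n = 3) in JunBΔep mice. Mpo was at 10.7 ± 18.5 (SD, n = 3) and 0.0294 ± 0.0283 (SD, n = 3) in the same order. In the limma fit over all genes 1.38% were called at an adjusted p below 0.05, and the 10 genes held 0 of those calls, from which nothing is read because the same values chose the genes. All 235 calls were lower in JunBΔep mice, and 0 were left with a replicate block or without control replicate 0, 1 or 2 or JunBΔep replicate 1. In 0 of the 10 did the genotypes fail to overlap, where 5.62% of all genes tested lay higher in every JunBΔep mouse than in every control and 9.16% lay lower. All 10 passed the filter at a mean of 0.1 FPKM, and Mpo would not have passed without its highest library.

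The size of each stage's median, and for the secondary granule and mature genes its direction, rested on 1 or 2 libraries. Without control replicate 0 the median log2 fold change was -0.36 for the primary granule genes, 1.24 for the secondary and 2.38 for the mature, with Mpo no longer passing the filter. Elane, of the primary granule genes, then turned to 0.28. Without the library labelled JunBΔep replicate 0 the median was -1.65, -1.82 and -0.83 for the primary granule, secondary granule and mature genes. With both left out it was -0.26, 0.39 and 0.14, over the 3, 2 and 2 genes that then passed the filter. Of the 10 genes, 7 were highest in control replicate 0, where 12.1% of all genes tested were highest, and 2 in the library labelled JunBΔep replicate 0, where 29.7% were.

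Among further genes of the early neutrophil stages, several were high in control replicate 0 alone, as Mpo was. Ms4a3, a membrane protein of granulocyte precursors, was at 7.53 FPKM in control replicate 0, at 0.0663 FPKM for the library labelled JunBΔep replicate 0 and listed at 0 in the other 4. Fcnb, the ficolin of promyelocytes, was at 5.37 FPKM in control replicate 0 and at most 0.0631 FPKM elsewhere. Cebpe, a transcription factor needed for secondary granules to form, was at 4.16 FPKM there and at most 0.253 FPKM elsewhere. Other genes of the list, some of which other skin cells also express, were not. Srgn, the granule proteoglycan serglycin, was at 34.6 FPKM in control replicate 0 and 235 FPKM for the library labelled JunBΔep replicate 0. Of 13 early genes tested, 5 were highest in control replicate 0 and 6 in the library labelled JunBΔep replicate 0, with a median log2 fold change of -0.05.

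The other secondary and tertiary granule genes divided between these libraries. Chil3, the chitinase-like protein Ym1, was at 44.5, 0.344 and 0 FPKM in controls and at 23.7, 0.0262 and 0.372 FPKM in JunBΔep mice, much like Cd177. Mmp8, the neutrophil collagenase, was at 2.85, 0.0589 and 0.0603 FPKM in controls and at 25.3, 0 and 0.0974 FPKM in JunBΔep mice. It was thus higher in the library labelled JunBΔep replicate 0 than in control replicate 0, as Retnlg was. Of 18 such genes tested, 13 had their highest value in the library labelled JunBΔep replicate 0 and 3 in control replicate 0. Their median log2 fold change was 0.22.

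Other genes of mature neutrophils nearly all peaked in the library labelled JunBΔep replicate 0, which held the highest value for 20 of the 23 tested, against the 29.7% of all genes given above. Fpr1, a receptor for bacterial formyl peptides, was at 28.2 FPKM there and at most 0.144 FPKM in the 4 libraries that did not stand apart, with control replicate 0 between. Cxcr2, the receptor for neutrophil-attracting chemokines, gave 22.3 FPKM there, against 1.09 to 2.45 FPKM in the other 5. Trem1, an amplifier of inflammatory signalling, was at 36.7 FPKM there and at most 0.457 FPKM elsewhere. S100a9, the partner of S100a8 in calprotectin, gave 698 FPKM in control replicate 0, whereas the library labelled JunBΔep replicate 0 listed it at 0 and had S100a8 as the highest of the list. The median log2 fold change of the list was 1.23. Some of its genes were high in all 6 libraries, such as Asprv1 at 411 to 891 FPKM and Il1rn at 23.8 to 143 FPKM. The part of other skin cells in the values of this list was not tested.

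The signals that make and attract neutrophils were mostly highest where the mature genes were. Csf3, the granulocyte colony-stimulating factor that Csf3r binds, was at 63.9 FPKM for the library labelled JunBΔep replicate 0 and at most 0.123 FPKM in the other 5. Cxcl5, a ligand of Cxcr2, was at 52.0 FPKM there and at most 0.0436 FPKM elsewhere. Of 14 recruitment signals tested, 12 were highest in that library and 1 in control replicate 0, whose sum over the list, 34.0 FPKM, was close to the 14.2 to 27.3 FPKM of the other 4 and far from 1162 FPKM. Cebpa, needed early in granulocyte development but also expressed in keratinocytes and adipocytes, was at 84.4 to 227 FPKM in the 6 libraries. It did not separate control replicate 0, at 124 FPKM, from the rest.

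Over the 5 lists of other neutrophil genes (early, secondary and tertiary, mature, granulopoiesis factors and recruitment signals), 0 of 79 genes tested were called in limma in either direction, where 1.38% of all genes tested were. An unadjusted p below 0.05 was found for 4 of the 79, 3 of them higher, where it was found for 243 genes higher and 1044 lower among all 17021. The 3 were Stfa1, BC100530 and Runx1, and Flt3 was lower. The stefin A genes Stfa1 and BC100530, inhibitors of cysteine proteases, were higher in every JunBΔep mouse than in every control. Stfa1 was at 0.661, 0.634 and 0.354 FPKM in controls and at 749.8, 6.27 and 12.6 FPKM in JunBΔep mice. BC100530 was at 0.626, 1.42 and 1.44 FPKM in controls and at 2729.9, 17.6 and 23.4 FPKM in JunBΔep mice. Their log2 fold changes were 5.28 (standard error 1.73, adjusted p = 0.456 from limma) and 6.04 (standard error 1.92, adjusted p = 0.432 from limma). Without the library labelled JunBΔep replicate 0 they were the only genes of the 5 lists called, at 3.18 (adjusted p = 0.0427 from limma) and 3.69 (adjusted p = 0.0410 from limma), in a fit that called 135 genes over the whole table, 10 of them higher. With control replicate 0 left out as well, 0 genes of the 5 lists and 0 of the table were called. Cxcl2 and Cxcl3 were also higher in every JunBΔep mouse than in every control, and Flt3 was lower in each. With these, 4 of the 79 genes lay higher without overlap, where 5.62% of all genes tested did, and 1 lay lower, where 9.16% did, so the lists held no more such genes than the table as a whole. Stefin A genes are expressed in keratinocytes as well as in neutrophils.

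Markers of other cell types moved with the granule genes of control replicate 0. The 8 liver genes summed to 1917 FPKM in that library and to 2.47 to 29.7 FPKM in the other 5, and all 8 were highest there. Alb, serum albumin, was at 823 FPKM, and Apcs was listed at 0 in the other 5. The 13 erythroid genes summed to 2247 FPKM in control replicate 0 and to 58.7 to 565 FPKM elsewhere, and 11 were highest there. Klf1, the erythroid transcription factor, was at 7.31 FPKM there against at most 0.317 FPKM elsewhere. Markers of B lineage precursors did not move with them, with a sum of 27.1 FPKM in control replicate 0 and 22.6 to 30.1 FPKM in the others. Vpreb2 was listed at 0 in all 6 libraries, and Rag1, Rag2, Igll1 and Dntt stayed below 0.1 FPKM in each. The labels call the sample skin, and whether tissue other than skin was in it was not tested, nor was the part of liver and red cell precursor transcripts in its granule genes. The genotype medians given above rest in part on this library.

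In the library labelled JunBΔep replicate 0 the liver sum was the lowest of the 6, at 2.47 FPKM, and the erythroid sum was 243 FPKM, within the range of the others. The 11 monocyte and macrophage genes summed to 805 FPKM there, to 625 FPKM in control replicate 0 and to 140 to 382 FPKM in the other 4, with Lyz2, the lysozyme that neutrophils express as well, at 557 FPKM in the first and 365 FPKM in the second. The order of these sums rests on Lyz2. Csf1r, Emr1, Mrc1, Cd163 and Ly6c2 were each lower in the library labelled JunBΔep replicate 0 than in control replicate 0. Cd163, a macrophage scavenger receptor, was at 6.70 and 13.3 FPKM. Ccr2, Cd68 and Fcgr1, like Lyz2, went the other way. Ccr2 was at 10.3 and 6.91 FPKM, Cd68 at 48.7 and 30.0 FPKM and Fcgr1 at 4.52 and 2.07 FPKM in the same order. Of the 11 genes, 5 were highest in control replicate 0 and 4 in the library labelled JunBΔep replicate 0. The part of these cells was not tested. The 8 mast cell genes ranged from 111 to 347 FPKM with the highest sum in control replicate 1, and the 9 eosinophil and basophil genes from 5.17 to 59.8 FPKM. The highest of these sums, in the library labelled JunBΔep replicate 0, was mostly Ear6, at 55.1 FPKM. Of the 8 eosinophil and basophil genes tested, 6 were highest in control replicate 0, among them Prg2, the eosinophil major basic protein, at 5.58 FPKM against at most 0.580 FPKM elsewhere. Epx, the eosinophil peroxidase, did not exceed 0.325 FPKM. The 8 megakaryocyte and platelet genes summed to 31.3 to 84.1 FPKM, mostly Pf4 and Gp1bb. Of the 6 tested, 4 were highest in control replicate 0, among them Gp9, of the platelet receptor for von Willebrand factor, at 1.05 FPKM against at most 0.110 FPKM. The part of these cells in the granule genes of control replicate 0 was not tested. The 6 keratinocyte genes summed to 6158 to 11854 FPKM.

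**Figure D3:**
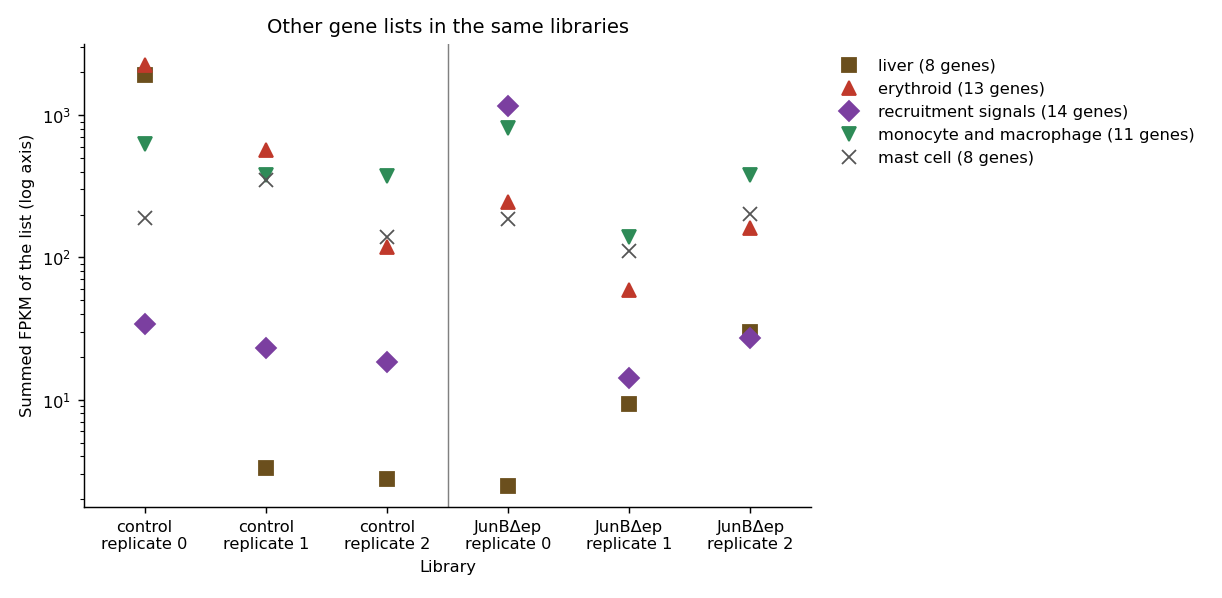
Summed FPKM of 5 lists of other genes (log vertical axis) in each of the 6 libraries (horizontal axis, 1 mouse each), with 1 symbol per list. The liver and erythroid sums are highest in control replicate 0, at 1917 and 2247 FPKM, and the recruitment signals in the library labelled JunBΔep replicate 0, at 1162 FPKM.

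The genes whose profile over the 6 libraries was closest to each stage were sought by Pearson correlation of log2(FPKM + 0.5) among genes whose mean reached 1 FPKM, as a description. The 10 closest to the primary granule mean had coefficients of 0.991 to 0.994. They included the liver genes Apoh, Ttr and F2 and the erythroid genes Tfr2, Hemgn and Ermap. Apoh was at 42.6 FPKM in control replicate 0 and at most 0.305 FPKM elsewhere, and Hemgn at 8.81 FPKM and at most 0.229 FPKM. The 10 closest to the mature mean had coefficients of 0.987 to 0.995 and were led by 4930538K18Rik, Slc25a24 and Soat2, which are not neutrophil markers. They also included Sdr9c7 and Acap2 and the neutrophil genes Fpr2, Mmp8, Slfn4, Cd300lf and S100a8. Fpr2 was at 3.23, 0.242 and 0.245 FPKM in controls and at 23.8, 0.0622 and 0.295 FPKM in JunBΔep mice. The 10 closest to the secondary granule mean had lower coefficients, 0.939 to 0.961. They included Saa2, a serum amyloid A gene, at 1208 FPKM in control replicate 0, 38.7 FPKM for the library labelled JunBΔep replicate 0 and at most 0.0395 FPKM elsewhere. Over 6 libraries such coefficients rest on the 1 or 2 libraries with high values.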

How the data were processed

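Poly(A) RNA of whole skin was sequenced from 3 JunBΔep and 3 control mice. The authors checked reads with FastQC, aligned them to mm9 with TopHat 2.0.10 (Bowtie 1.0.0, SAMtools 0.1.19) and deposited FPKM per gene for every mouse. The submitters' processing notes also name Cufflinks. The library kit was stranded. Any scaling between libraries, and whether strand was used in counting, were not given in the sources read here. Groups come from the genotype labels, and the littermates are separate mice. The members and lists were chosen with earlier results of these data known.

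Values were tested as log2(FPKM + 0.5) with limma 3.58.1 (R 4.3.3), intensity trend, no block, two-sided with Benjamini-Hochberg adjustment, over the 17021 genes whose mean reached 0.1 FPKM. The authors' own test, DESeq2, needs counts, which were not used here. With 3 mice against 3, an exact permutation test of 1 gene cannot go below p = 0.1. The procedure was tested on simulated data. Genes named are the 10 members, genes of the 13 lists, and the 10 genes closest in profile to each stage; others are marked. Of the lists, Hbb-b2, Ahsp and Ly6g were not analysed here, and some genes are not reported here. Positions of genes come from GENCODE vM1 (mm9), and upstream sequences from RefSeq on GRCm38.p6. Python 3.11.15 with pandas 2.3.3 made the tables, and matplotlib 3.10.9 the figures. Alternatives were other pseudocounts, filters, scalings and fits, a replicate block, and leaving out mice.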

Additional observations from a re-analysis of the deposited data

How the results depend on the processing

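The count of genes called over the whole table was 235. It was 0 with a replicate block, 0 with a block on the number series of the sample names, and 0 with both libraries of number 0 left out; the latter 2 alternatives were chosen after the data were seen. Leaving out 1 mouse gave 0 to 254 calls, 0 without control replicate 0, 1 or 2 or JunBΔep replicate 1, and 135 without JunBΔep replicate 0. Genes called higher numbered 0 to 10, with 10 without JunBΔep replicate 0. In the early list and in the mature list, calls numbered 0 to 1 over these fits. A pairing of the mice by replicate number was not seen but is not excluded. Deviations from the group means correlated at 0.12, -0.23 and -0.43 for numbers 0, 1 and 2. Across different numbers they correlated at -0.37 to 0.46. Each replicate number holds 1 mouse of each genotype, so the replicate block cannot change a fold change. The unchanged stage medians under it therefore say nothing about stability. The secondary granule median changed sign, from -0.79, to 0.23 with the number-series block and to 0.21 without JunBΔep replicate 1. It moved to -0.36 at a pseudocount of 0.1, -2.47 without control replicate 1 and -1.56 without control replicate 2. The mature median, 1.41, went to 2.84 with the number-series block, 2.86 without JunBΔep replicate 1, 2.19 without JunBΔep replicate 2 and 0.77 without control replicate 2. The primary granule median, -1.79, kept its sign throughout and went to -2.83 without control replicate 2. Its genes did not all keep theirs. Elane turned to 0.28 without control replicate 0, where Mpo no longer passed the filter. With both libraries of number 0 left out, Elane was at 0.68. The median of -0.26 was then the value of Prtn3 (standard error 0.90). Over the 10 genes, 18 of 176 alternative fold changes had the other sign, 3 of 110 where all 6 mice were kept. Both totals include fits that cannot alter a fold change, those with another filter, no trend, robust limma or the replicate block. They therefore overstate how stable the signs were. Within mice, secondary minus mature levels in control replicate 2 went from 1.27 to -0.81 without Ltf, on the log2 scale, and in JunBΔep replicate 2 from 0.22 to -1.51. Depth is unknown, so levels near 0 FPKM cannot be given an error.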
